A study of Rattus norvegicus with 8 samples.

Results

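Cytochrome P450 genes were compared in whole kidneys of the HSRA rat, a model of unilateral renal agenesis derived from a heterogeneous stock. HSRA-S animals (n = 4) were born with a solitary kidney and HSRA-C animals (n = 4) had both, and all were HSRA rats 4 weeks old. Each sample was hybridised to its own Affymetrix Rat Gene 1.1 ST array. The replicates are labelled as biological, with no sex or litter stated. Members are the genes whose symbol begins with Cyp and a digit, read from probe sets with exactly 1 symbol, with the brightest probe set per gene and a log2 mean over all 8 arrays of at least 3.6. Cyp51, Cyp27b1 and Cyp24a1 were left out. Of 65 such genes 38 were members, among 13865 genes at that level and 17245 genes in all. Within the family the mean intensity over all arrays set which genes were members, and the difference between the groups did not enter that cut. The family and its rule were chosen with earlier results of these data known. Just inside the level stood Cyp2g1 at a log2 mean of 3.61 and Cyp2d3 at 3.70, and just outside it Cyp26a1 at 3.54 and Cyp2c7 at 3.48.

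Cytochromes P450 are haem enzymes that insert an oxygen atom into small fat-soluble molecules, with electrons passed on by a reductase. Families 1 to 3 oxidise mostly drugs and other foreign compounds, while many of the others act on the body's own lipids, steroids, bile acids and vitamins. In the kidney, which holds most of its P450 enzyme in the proximal tubule, the CYP2C and CYP2J enzymes turn arachidonic acid into epoxides that widen vessels and promote salt loss. The CYP4A and CYP4F enzymes hydroxylate the end of its chain and form a product that constricts renal vessels.

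The 38 members fell into 28 subfamilies, of which 23 had a single member. CYP1A, CYP2C and CYP2J had 2 members each, CYP2D had 3 and CYP4F had 6. CYP2 held 16 of the genes and CYP4 held 9. The 27 genes below the level included all 4 CYP3A genes that had a probe set of their own, the highest of them at a log2 mean of 2.85, as well as 4 of CYP2B and 5 of CYP2C. Cyp7a1, the rate-limiting enzyme of bile acid synthesis, was at 2.69, Cyp11b2, the aldosterone synthase, at 2.75, and Cyp19a1, the aromatase, at 3.22. A further 10 probe sets with several symbols, including those shared among CYP4A, CYP3A, CYP2D and CYP11B genes, were not used. Intensities of different probe sets do not rank genes by their RNA level, since each probe set has its own brightness.

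The promoter sequences below belong to 3 genes that had lower values in the solitary kidney (Cyp2s1, Cyp2u1 and Cyp1b1) and to the pair of genes with the widest spread between animals (Cyp4a8 and Cyp2j3). Each line gives the 250 bases before the gene's start from RefSeq on build GRCr8, 5′ to 3′ on the gene's strand. Cyp2s1 lies at chr1:90453074-90453323, minus strand. Cyp2u1 lies at chr2:222540990-222541239, minus strand. Cyp1b1 lies at chr6:21094315-21094564, plus strand. Cyp4a8 lies at chr5:133970227-133970476, minus strand. Cyp2j3 lies at chr5:116360500-116360749, minus strand. Capitals mark the letters GCGTG on either strand, the core bound by the aryl hydrocarbon receptor, in the first 3 genes, in the others a direct repeat of AGGTCA with 1 base between its copies, bound by PPAR and RXR, was searched on either strand.
Cyp2s1: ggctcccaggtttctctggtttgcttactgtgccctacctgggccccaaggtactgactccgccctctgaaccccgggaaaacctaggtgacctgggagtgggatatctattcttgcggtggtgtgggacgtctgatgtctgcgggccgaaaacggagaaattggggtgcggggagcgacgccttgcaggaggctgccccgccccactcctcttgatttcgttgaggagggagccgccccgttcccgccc
Cyp2u1: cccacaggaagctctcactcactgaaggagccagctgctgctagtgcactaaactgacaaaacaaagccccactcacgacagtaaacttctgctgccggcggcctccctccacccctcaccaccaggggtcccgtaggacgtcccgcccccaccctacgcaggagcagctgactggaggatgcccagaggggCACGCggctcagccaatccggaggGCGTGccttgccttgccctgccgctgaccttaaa
Cyp1b1: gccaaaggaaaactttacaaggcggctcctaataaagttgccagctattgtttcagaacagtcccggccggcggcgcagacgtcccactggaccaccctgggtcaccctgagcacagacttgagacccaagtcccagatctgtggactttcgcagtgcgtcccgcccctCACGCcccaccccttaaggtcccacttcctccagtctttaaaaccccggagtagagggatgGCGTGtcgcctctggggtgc
Cyp4a8: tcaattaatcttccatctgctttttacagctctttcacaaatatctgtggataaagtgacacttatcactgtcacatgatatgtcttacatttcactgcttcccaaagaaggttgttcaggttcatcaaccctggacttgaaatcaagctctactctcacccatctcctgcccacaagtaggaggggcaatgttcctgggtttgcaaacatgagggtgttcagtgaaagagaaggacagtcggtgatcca
Cyp2j3: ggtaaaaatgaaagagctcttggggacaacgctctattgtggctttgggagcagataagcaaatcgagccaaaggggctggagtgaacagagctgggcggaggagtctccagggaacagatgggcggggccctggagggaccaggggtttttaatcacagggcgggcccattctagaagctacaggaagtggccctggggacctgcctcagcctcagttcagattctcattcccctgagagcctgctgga

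Cyp1b1 held GCGTG at 2 places, beginning 81 and 20 bases before the start, and Cyp2u1 held it at 2 places, 58 and 34 bases before the start. Cyp2s1 held none in this window. Of all 33469 promoter windows of this length, 25.9% held it. So did 13 of the 35 windows of the 33 members with a promoter in the table, from 12 genes. The PPAR repeat, searched with no mismatch allowed, stood in none of the members' windows (0 of 35). It stood in 0.0508% of all windows (17 of 33469), so it is too rare for its absence here to tell anything. The promoters of Cyp2u1 and Cyp2s1 were rich in G and C, at 63.2% and 62.4%, against 43.2% for Cyp4a8 and a median of 51.2% over all windows. These matches describe letters only.

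No P450 gene passed the test between the groups. The differences were small and went both ways: 18 members were higher and 20 lower in HSRA-S, with a median log2 difference of -0.016 against 0.015 over all genes tested. The size of the difference was under 0.1 in 25 members and under 0.2 in 32, and the widest was that of Cyp1b1, 1.28-fold. After limma and adjustment over all 13865 genes the count past an adjusted p of 0.05 was 0, for members and for all genes alike. Past the same threshold without adjustment stood 5 members of 38 (13.2%), where the share over all genes was 12.0%. Of these, 4 were lower (10.5% of members, against 4.66% of all genes) and 1 was higher (2.63%, against 7.34%). The groups did not overlap in 1 member (2.63%), which was lower in HSRA-S, against 6.27% of all genes in either direction and 2.16% on the lower side. The smallest adjusted p of a member was 0.332. The average log2 intensity of the 38 genes was 5.64, 5.66, 5.67 and 5.65 in HSRA-S replicates 1 to 4, against 5.79, 5.71, 5.61 and 5.61 in HSRA-C replicates 1 to 4. The 4 HSRA-S values lay inside the range of the 4 HSRA-C values.

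For most of the genes the arrays set a bound on how far the measured intensity could differ. The 95% interval lay within 1.5-fold in either direction for 34 of the 38 members (89.5%), against 94.3% of all genes. The 4 members with wider intervals were Cyp1a1, Cyp1b1, Cyp2j3 and Cyp4a8. These intervals are those of single genes and are not adjusted for their number. The bound of 1.5-fold is wider than the widest difference of a member, which was 1.28-fold. It holds for intensities and not for RNA levels, since RMA shrinks differences between dim values. Of the 38 members 9 had a log2 mean under 4.

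**Figure D1:**
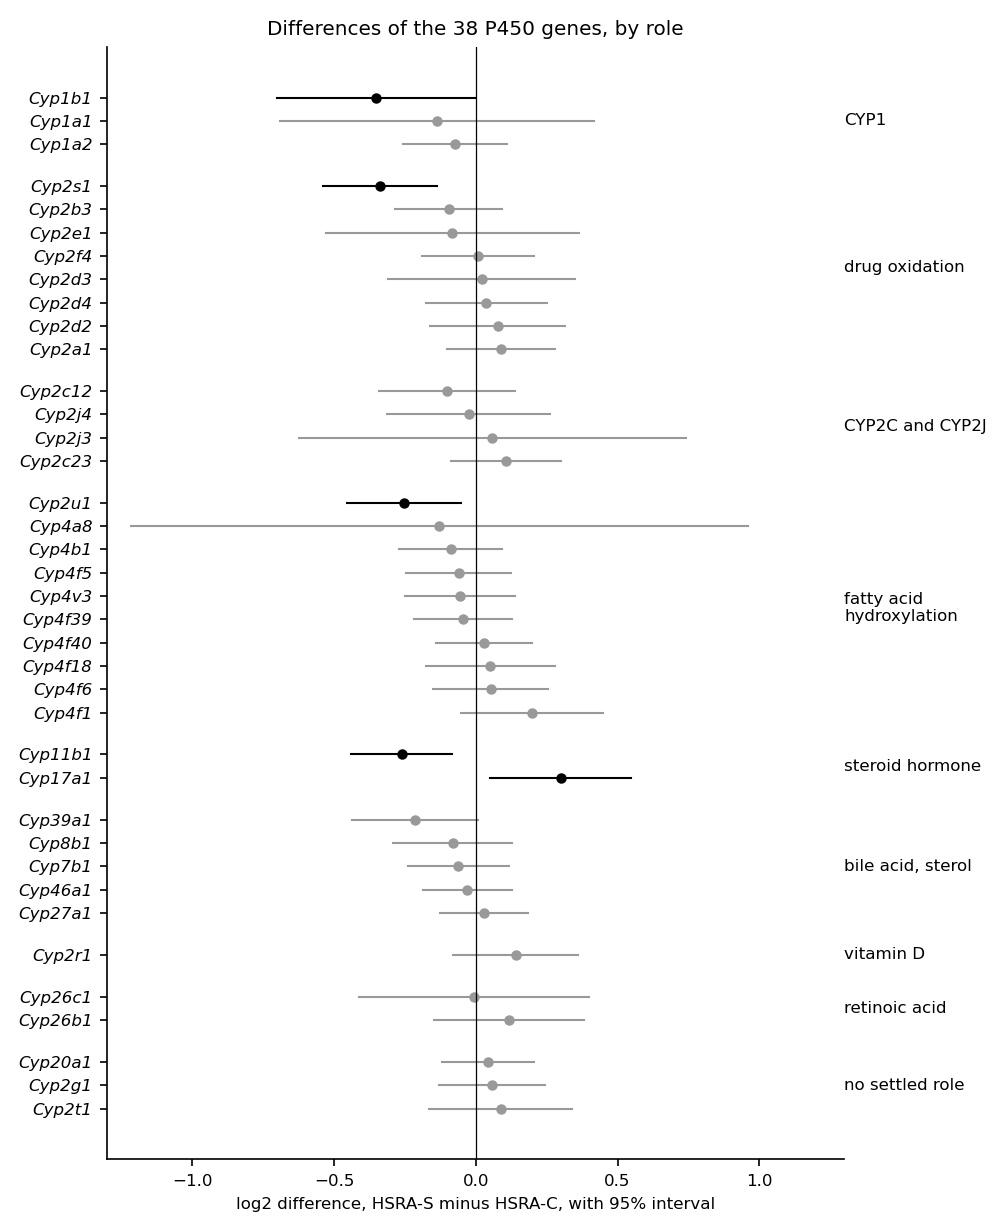
Log2 difference (HSRA-S minus HSRA-C, horizontal axis) of each of the 38 P450 genes with its 95% interval, grouped by role from top to bottom; black marks an unadjusted p under 0.05 and grey the rest. Black points are Cyp1b1, Cyp2s1, Cyp2u1 and Cyp11b1 on the lower side and Cyp17a1 on the higher side, and the widest interval is that of Cyp4a8.

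Technical facts of the arrays come first here, followed by tubule markers of the samples. Array medians ran from 30.8 to 32.3 on the linear scale, and arrays correlated at 0.987 to 0.995 with each other. HSRA-C replicates 3 and 4 stood lowest in the difference between proximal tubule and collecting duct markers, and HSRA-S replicate 4 stood highest. The mean of 22 proximal tubule genes minus that of 17 collecting duct genes was 2.22, 2.29, 2.17 and 2.88 in HSRA-S replicates 1 to 4. In HSRA-C replicates 1 to 4 it was 2.41, 2.27, 1.66 and 1.58. All 22 proximal tubule genes on the array reached the level of 3.6. Of these, 16 were higher and 6 lower in HSRA-S, with 5 and 2 of them at an unadjusted p under 0.05, so the list went both ways. Of all genes 7.34% were higher and 4.66% lower at that threshold. Of the 17 collecting duct genes 3 were higher and 14 lower, with 0 and 4 at that threshold. The proximal list averaged 10.05 to 10.29 in HSRA-S and 9.86 to 10.12 in HSRA-C, and the collecting duct list 7.41 to 7.90 in HSRA-S and 7.66 to 8.28 in HSRA-C. Values without HSRA-C replicates 3 and 4, or with the tubule difference as a covariate, are therefore given. They stand beside most of the members whose array values are given. Cyp2g1, whose call changed without HSRA-C replicates 3 and 4, is not among those members. Each of these alternatives was added once the data had been seen. No fit left out HSRA-S replicate 4 together with HSRA-C replicates 3 and 4, so only the low end was left out. Whether the tubule values of these arrays come from the animals or from the handling of the samples was not tested. In such whole-kidney samples fewer cells of a type and less RNA per cell cannot be told apart. Without HSRA-C replicates 3 and 4, 4 members had an unadjusted p under 0.05 (Cyp2s1, Cyp39a1, Cyp4a8 and, on the higher side, Cyp2g1), against 4.85% of all genes. With the covariate there were 2, Cyp11b1 and Cyp2s1, against 7.86% of all genes.

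Among the enzymes of the CYP1 family, which are the classic targets of the aryl hydrocarbon receptor, all 3 members had lower averages in HSRA-S, and 1 of them had an unadjusted p under 0.05. Of all 13865 genes 6173 were lower, and 12.0% were at that threshold in either direction. Cyp1b1, which oxidises polycyclic hydrocarbons and oestrogens outside the liver, had log2 intensities of 4.97, 5.10, 5.49 and 4.65 in HSRA-S replicates 1 to 4, against 5.50, 5.18, 5.43 and 5.51 in HSRA-C replicates 1 to 4. HSRA-S replicate 3 lay among the controls, and the other 3 HSRA-S arrays lay below all of them (log2 difference -0.35, SE 0.16, 95% interval -0.70 to -0.0026, unadjusted p = 0.0486, limma adjusted p = 0.416). The difference was -0.29 without HSRA-C replicates 3 and 4 (unadjusted p = 0.207) and -0.18 with the tubule covariate (unadjusted p = 0.290). With single arrays left out it ran from -0.50 without HSRA-S replicate 3 to -0.22 without HSRA-S replicate 4, and the unadjusted p was above 0.05 in 6 of 8 such fits, all but those without HSRA-S replicate 3 or HSRA-C replicate 2. A plain test per gene gave an unadjusted p of 0.115. A second probe set of Cyp1b1 also differed by -0.29. Cyp1a1, which activates aromatic hydrocarbons, had log2 intensities of 3.58, 4.30, 4.40 and 3.58 in HSRA-S replicates 1 to 4, against 4.67, 4.20, 3.87 and 3.67 in HSRA-C replicates 1 to 4. Both groups held high and low arrays, and they overlapped (log2 difference -0.14, SE 0.25). Its difference was -0.47 without HSRA-C replicates 3 and 4 (unadjusted p = 0.119) and -0.26 with the covariate (unadjusted p = 0.398). Cyp1a2, which oxidises caffeine and aromatic amines, differed by -0.072 (SE 0.082). The receptor itself, Ahr, which was named after its values were seen, differed by -0.065 (SE 0.086).

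Of 8 members that act mainly on drugs and other foreign compounds, 1 had an unadjusted p under 0.05, against 12.0% of all genes. Cyp2s1, an epithelial P450 found mostly outside the liver, had log2 intensities of 5.90, 5.95, 6.15 and 5.89 in HSRA-S replicates 1 to 4, against 6.14, 6.35, 6.50 and 6.26 in HSRA-C replicates 1 to 4. The groups touched without separating: HSRA-S replicate 3 stood just above HSRA-C replicate 1, and the other arrays did not cross. The level in HSRA-S was 1.26-fold lower (log2 difference -0.34, SE 0.090, 95% interval -0.54 to -0.14, unadjusted p = 0.00381, limma adjusted p = 0.332). The difference was -0.27 without HSRA-C replicates 3 and 4 (unadjusted p = 0.0302) and -0.26 with the covariate (unadjusted p = 0.0262). A second, dimmer probe set of Cyp2s1, with a log2 mean of 3.42, differed by 0.012.

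Cyp2e1, which oxidises ethanol, acetone and small solvents, had log2 intensities of 10.64, 10.52, 10.40 and 11.31 in HSRA-S replicates 1 to 4, against 11.02, 10.42, 10.75 and 11.02 in HSRA-C replicates 1 to 4. Its highest array was a solitary kidney and its lowest was too, and all HSRA-C arrays lay between them (log2 difference -0.083, SE 0.20). The difference of Cyp2e1 was -0.0012 without HSRA-C replicates 3 and 4 and -0.23 with the covariate (unadjusted p = 0.337). The CYP2D enzymes, which oxidise many basic drugs, had small positive differences in 3 of 3 members. They were 0.077 (SE 0.11) for Cyp2d2, 0.038 (SE 0.095) for Cyp2d4 and 0.022 (SE 0.15) for Cyp2d3, each with a 95% interval that held 0. Cyp2a1, a steroid hydroxylase of rat liver, had log2 intensities of 4.19, 3.93, 4.24 and 4.13 in HSRA-S replicates 1 to 4, against 4.18, 4.02, 4.02 and 3.91 in HSRA-C replicates 1 to 4. Its groups overlapped (log2 difference 0.090, SE 0.085). Cyp2b3 differed by -0.096 (SE 0.084), and a second probe set of this gene carried the same values on every array. Cyp2f4, the lung enzyme that activates naphthalene, differed by 0.0084 (SE 0.089).

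Enzymes that make epoxides of arachidonic acid had no member of 4 at an unadjusted p under 0.05, against 12.0% of all genes. Cyp2c23, the main epoxygenase of the rat kidney, had log2 intensities of 11.49, 11.47, 11.46 and 11.80 in HSRA-S replicates 1 to 4, against 11.55, 11.45, 11.35 and 11.44 in HSRA-C replicates 1 to 4. HSRA-S replicate 4 was the highest array, and the other 3 HSRA-S arrays lay within the range of the controls (log2 difference 0.11, SE 0.087, 95% interval -0.089 to 0.30). The difference of Cyp2c23 was 0.053 without HSRA-C replicates 3 and 4 and -0.0091 with the covariate, where its sign turned. Cyp2c12, known as a female-specific enzyme of adult rat liver, was dim and differed by -0.10 (SE 0.11). Cyp2j4, an epoxygenase found in rat intestine, differed by -0.025 (SE 0.13). Cyp2j3 had log2 intensities of 4.80, 4.71, 5.46 and 5.53 in HSRA-S replicates 1 to 4, against 5.48, 5.76, 4.57 and 4.47 in HSRA-C replicates 1 to 4. The arrays took a high and a low level within each group, HSRA-S replicates 3 and 4 with HSRA-C replicates 1 and 2 at the high one (log2 difference 0.058, SE 0.31). Its difference was -0.49 without HSRA-C replicates 3 and 4 (unadjusted p = 0.0826) and -0.42 with the covariate (unadjusted p = 0.104), so its direction turned with either.

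Fatty acid hydroxylases formed the largest role, with 10 members of which 4 were higher, 6 lower and 1 at an unadjusted p under 0.05. Of all genes 12.0% were at that threshold. Cyp2u1, a hydroxylase of long-chain fatty acids, had log2 intensities of 6.98, 7.09, 7.00 and 7.15 in HSRA-S replicates 1 to 4, against 7.14, 7.19, 7.53 and 7.37 in HSRA-C replicates 1 to 4. HSRA-S replicate 4 reached just above HSRA-C replicate 1, and HSRA-C replicates 3 and 4 were the highest arrays. Its level in HSRA-S was 1.19-fold lower (log2 difference -0.25, SE 0.091, 95% interval -0.45 to -0.051, unadjusted p = 0.0193, limma adjusted p = 0.360). Its difference was -0.11 without HSRA-C replicates 3 and 4 (unadjusted p = 0.211) and -0.19 with the covariate (unadjusted p = 0.0999). Leaving out HSRA-S replicate 1 (unadjusted p = 0.0507) or HSRA-C replicate 3 (unadjusted p = 0.0551) also left the unadjusted p of Cyp2u1 above 0.05. Cyp4f1, a hydroxylase of arachidonic acid and leukotrienes, had log2 intensities of 9.75, 9.66, 9.49 and 9.75 in HSRA-S replicates 1 to 4, against 9.66, 9.66, 9.24 and 9.29 in HSRA-C replicates 1 to 4. HSRA-C replicates 3 and 4 stood below all other arrays, and HSRA-C replicates 1 and 2 lay among the solitary kidneys (log2 difference 0.20, SE 0.11, limma adjusted p = 0.501). Without HSRA-C replicates 3 and 4 the difference of Cyp4f1 was 3.1e-05, and with the covariate it was 0.032.

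The other CYP4F genes had differences close to 0. Cyp4f6 differed by 0.053 (SE 0.091), Cyp4f18, which breaks down leukotriene B in mouse leukocytes, by 0.052 (SE 0.10) and Cyp4f40 by 0.030 (SE 0.076). Cyp4f39, needed for the skin lipid barrier in mouse, differed by -0.044 (SE 0.077) and Cyp4f5 by -0.060 (SE 0.083). Outside CYP4F, Cyp4b1, a lung enzyme that activates plant toxins, differed by -0.088 (SE 0.082). Cyp4v3, the counterpart of the human gene of a crystalline retinal dystrophy, differed by -0.054 (SE 0.087). None of these 7 had an unadjusted p under 0.05, against 12.0% of all genes.

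Cyp4a8, a CYP4A fatty acid hydroxylase of the rat kidney, varied more between animals than any other member and was named after its values were seen. It had log2 intensities of 6.31, 6.85, 7.06 and 5.69 in HSRA-S replicates 1 to 4, against 7.49, 7.55, 6.03 and 5.36 in HSRA-C replicates 1 to 4. The highest pair of arrays and the lowest single array were all control kidneys, and the solitary kidneys lay between them. Between its highest and lowest array the intensity differed 4.56-fold, while HSRA-S averaged 6.48 ± 0.61 and HSRA-C averaged 6.60 ± 1.09 (SD, n = 4 each). Its difference of -0.13 had a 95% interval of -1.22 to 0.96, which does not exclude a change of over 1.5-fold in either direction. Against HSRA-C replicates 1 and 2 alone the difference was -1.04 (unadjusted p = 0.0143, limma adjusted p = 0.977), and with the tubule covariate it was -0.52 (unadjusted p = 0.374).

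**Figure D2:**
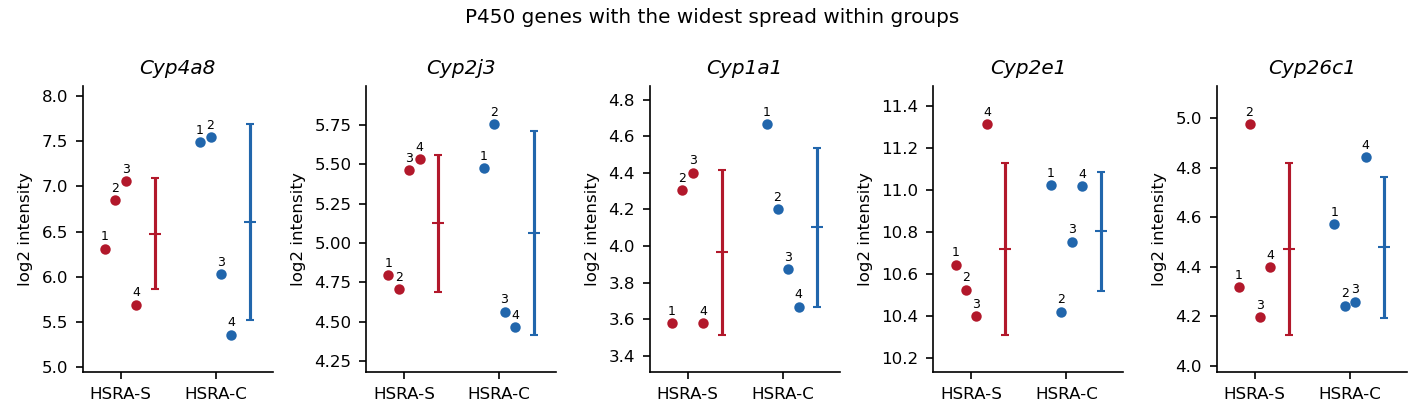
Log2 intensity (vertical axis, each panel with its own range) of the 5 P450 genes with the widest spread within groups, in HSRA-S (left, red) and HSRA-C (right, blue); each point is 1 array labelled with its replicate number, and the bar gives mean ± SD of 4 arrays. In Cyp4a8 and Cyp2j3 the HSRA-C arrays split into a high pair (replicates 1 and 2) and a low pair (replicates 3 and 4).

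Spread between animals of a group was wide for several P450 genes. The SD within groups of 5 of the 38 members (13.2%) lay in the highest 5% of all genes tested: Cyp4a8 (SD 0.885 on the log2 scale), Cyp2j3 (0.55), Cyp1a1 (0.443), Cyp2e1 (0.352) and Cyp26c1 (0.317). The median of the SD was 0.141 over the members and 0.119 over all genes. Cyp2j3 spanned 2.44-fold, Cyp1a1 2.13-fold and Cyp2e1 1.89-fold between their highest and lowest arrays. The animals at the top differed by gene. HSRA-C replicate 2 was highest for Cyp4a8 and Cyp2j3, HSRA-C replicate 1 for Cyp1a1, HSRA-S replicate 4 for Cyp2e1 and HSRA-S replicate 2 for Cyp26c1. The part of the tubule markers in this spread was not tested. None of the 9 sex-linked genes listed for a check of the animals' sex had a probe set of its own (0 of 9), so no such check was made here.

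The 2 steroid hormone genes went in opposite directions, each at an unadjusted p under 0.05, where the share over all genes was 12.0%. Cyp11b1, which makes the last step of corticosterone synthesis in the adrenal cortex, had log2 intensities of 5.05, 4.82, 5.01 and 5.11 in HSRA-S replicates 1 to 4, against 5.21, 5.21, 5.41 and 5.22 in HSRA-C replicates 1 to 4. All HSRA-S arrays lay below all HSRA-C arrays, and the solitary kidneys were 1.20-fold lower (log2 difference -0.26, SE 0.079, 95% interval -0.44 to -0.085, unadjusted p = 0.00815, limma adjusted p = 0.332). The difference was -0.21 without HSRA-C replicates 3 and 4 (unadjusted p = 0.0593) and -0.26 with the covariate (unadjusted p = 0.0248). A second Cyp11b1 probe set, at a log2 mean of 2.76, differed by 0.066, and the close copies Cyp11b2 and Cyp11b3 were below the level. Cyp17a1, which leads from progestogens to androgens, had log2 intensities of 4.94, 4.89, 4.58 and 4.84 in HSRA-S replicates 1 to 4, against 4.80, 4.45, 4.33 and 4.48 in HSRA-C replicates 1 to 4. HSRA-C replicate 1 lay among the solitary kidneys and the other controls below them (log2 difference 0.30, SE 0.11, 95% interval 0.052 to 0.55, unadjusted p = 0.0226, limma adjusted p = 0.360). It was 1.23-fold higher in HSRA-S, by 0.19 without HSRA-C replicates 3 and 4 (unadjusted p = 0.188) and by 0.20 with the covariate (unadjusted p = 0.132). The unadjusted p of Cyp17a1 was also above 0.05 without HSRA-S replicate 1 (0.0641), HSRA-S replicate 2 (0.0572), HSRA-C replicate 2 (0.0538) or HSRA-C replicate 3 (0.0684).

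Adrenal cortex markers were set beside these genes. Of 13 listed, 11 had a probe set and 7 reached the level. These 7, with Cyp11b1 itself among them, had summed linear intensities of 249 to 262 in HSRA-S and 252 to 288 in HSRA-C. The brightest, Scarb1 and Gata6 at log2 means of 6.46 and 5.91, weighed most in the sums. Nr5a1 (3.55), Hsd3b2 (3.5) and Cyp11b2 (2.75) were below the level. Cyp11a1, the first enzyme of steroid synthesis, was at a log2 mean of 3.39, and Star, which carries cholesterol into mitochondria, at 4.71 in HSRA-S and 4.77 in HSRA-C. Of these 7 markers 6 were lower in HSRA-S and 1, Mc2r, the corticotropin receptor, was higher by 0.031 (SE 0.13). Among the lower ones Mrap, its accessory protein, differed by -0.14 (SE 0.087). The 1 marker with an unadjusted p under 0.05 was Cyp11b1 itself, against 4.66% of all genes lower at that threshold. Of all 13865 genes 6173 were lower. The part of adrenal tissue in the values of Cyp11b1 and Cyp17a1 was not tested.

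**Figure D3:**
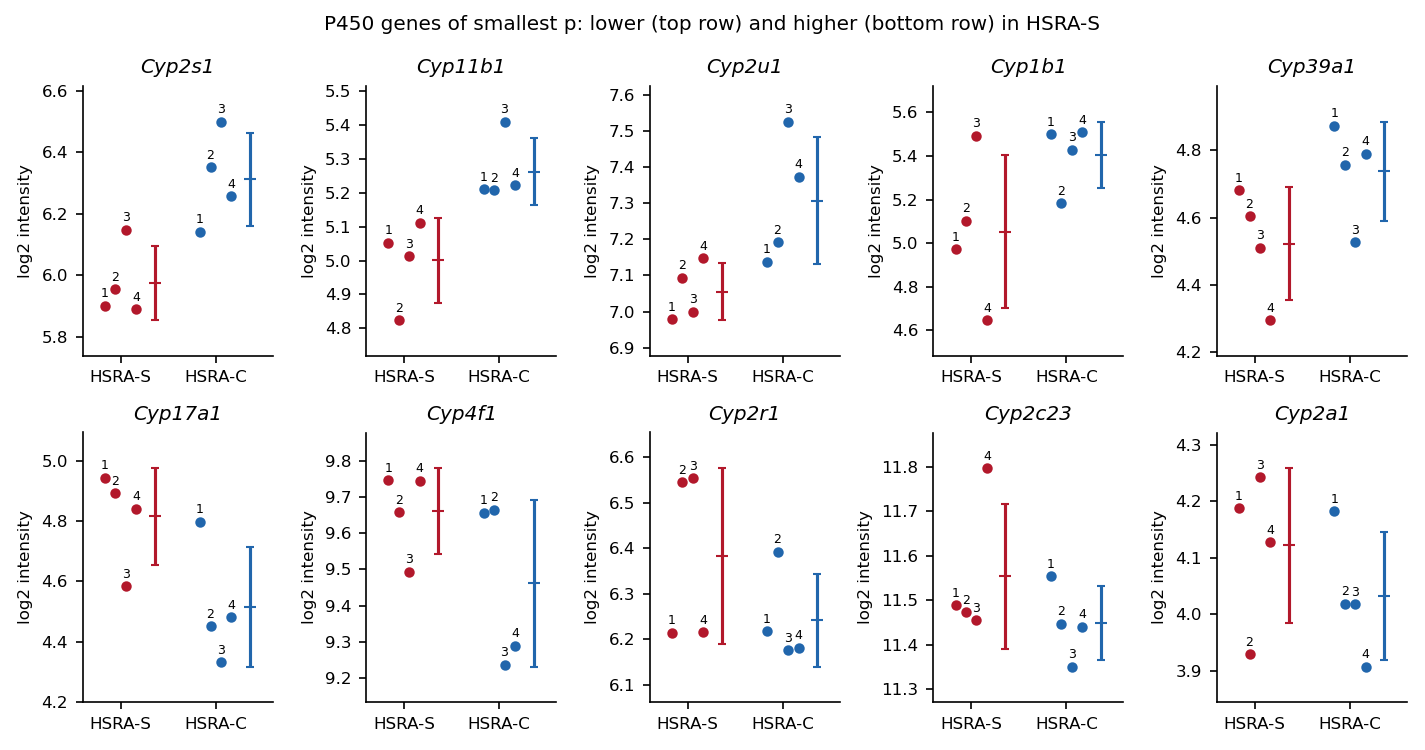
Log2 intensity (vertical axis, each panel with its own range) of the 5 P450 genes of smallest p that were lower in HSRA-S (top) and the 5 that were higher (bottom), with HSRA-S in red on the left and HSRA-C in blue on the right; points are arrays labelled by replicate, bars are mean ± SD of 4 arrays. The groups do not overlap for Cyp11b1, and overlap for the other 9.

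Genes of bile acid and sterol metabolism, vitamin D and retinoic acid had no member at an unadjusted p under 0.05, against 12.0% of all genes. Cyp39a1, an oxysterol hydroxylase, came nearest, with log2 intensities of 4.68, 4.60, 4.51 and 4.30 in HSRA-S replicates 1 to 4, against 4.87, 4.76, 4.53 and 4.79 in HSRA-C replicates 1 to 4. HSRA-C replicate 3 lay within the range of the solitary kidneys, and the other 3 controls lay above all of them (log2 difference -0.21, SE 0.10, 95% interval -0.44 to 0.0090, unadjusted p = 0.0582, limma adjusted p = 0.428). Without HSRA-C replicates 3 and 4 the difference of Cyp39a1 was -0.29 (unadjusted p = 0.0341), and with the covariate it was -0.20 (unadjusted p = 0.137). Cyp7b1, another oxysterol hydroxylase, had log2 intensities of 5.28, 5.42, 5.58 and 5.41 in HSRA-S replicates 1 to 4, against 5.63, 5.43, 5.48 and 5.40 in HSRA-C replicates 1 to 4. Its groups overlapped (log2 difference -0.062, SE 0.080). Cyp8b1, which sets the share of cholic acid, differed by -0.082 (SE 0.094), Cyp46a1, the cholesterol hydroxylase of neurons, by -0.029 (SE 0.070) and Cyp27a1, a mitochondrial sterol hydroxylase, by 0.029 (SE 0.069).

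Cyp2r1, which adds the first hydroxyl group to vitamin D, had log2 intensities of 6.21, 6.55, 6.55 and 6.22 in HSRA-S replicates 1 to 4, against 6.22, 6.39, 6.18 and 6.18 in HSRA-C replicates 1 to 4. HSRA-S replicates 2 and 3 were the highest arrays, while HSRA-S replicates 1 and 4 lay within the range of the controls (log2 difference 0.14, SE 0.099). Of the enzymes that break down retinoic acid, Cyp26b1 differed by 0.12 (SE 0.12). Cyp26c1 had log2 intensities of 4.32, 4.98, 4.20 and 4.40 in HSRA-S replicates 1 to 4, against 4.57, 4.24, 4.26 and 4.84 in HSRA-C replicates 1 to 4. Single arrays of either group stood high, HSRA-S replicate 2 and HSRA-C replicate 4, and the averages were almost equal (log2 difference -0.0061, SE 0.18). The sign of Cyp26c1 turned without HSRA-C replicates 3 and 4 (0.066) and with the covariate (0.044). Cyp20a1, a P450 whose substrate is not settled, had log2 intensities of 7.32, 7.42, 7.45 and 7.20 in HSRA-S replicates 1 to 4, against 7.30, 7.32, 7.39 and 7.21 in HSRA-C replicates 1 to 4. Its values were close together in both groups (log2 difference 0.044, SE 0.072). Cyp2t1 differed by 0.087 (SE 0.11) and Cyp2g1, an enzyme of the olfactory mucosa, by 0.058 (SE 0.084).

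Genes that supply and control P450 enzymes were compared in the same fit. Among redox partners and haem synthesis genes, 12 of 19 tested were higher in HSRA-S, with a median difference of 0.059. Of all genes 7692 of 13865 were higher. At an unadjusted p under 0.05 stood 1 higher gene of the list (5.26%) and 0 lower, against 7.34% and 4.66% of all genes. That gene was Por, the reductase that passes electrons to all microsomal P450 enzymes. Por had log2 intensities of 7.33, 7.37, 7.39 and 7.48 in HSRA-S replicates 1 to 4, against 7.35, 7.29, 6.95 and 7.00 in HSRA-C replicates 1 to 4. HSRA-C replicates 3 and 4 were below the other 6 arrays (log2 difference 0.25, SE 0.097, limma adjusted p = 0.379). Without those 2 arrays 0 genes of the list were at an unadjusted p under 0.05, against 4.85% of all genes. The median of the list was then -0.020. Uros, of haem synthesis, differed by 0.20 (SE 0.10) and Pgrmc2, a haem-binding partner, by 0.14 (SE 0.075).

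Of 24 receptors and factors that control P450 genes, 13 were higher, and 4 (16.7%) were at an unadjusted p under 0.05, all higher in HSRA-S, where the share of all genes on that side was 7.34%. Rxrg, a retinoid X receptor, differed by 0.36 (SE 0.10), the bile acid receptor Nr1h4 by 0.27 (SE 0.097) and the drug-sensing pregnane X receptor Nr1i2 by 0.34 (SE 0.13). The other was Ppara, the receptor that switches on fatty acid breakdown and CYP4A genes, and it fell outside the naming rule. Ppara had log2 intensities of 8.09, 8.05, 8.07 and 8.61 in HSRA-S replicates 1 to 4, against 8.18, 7.93, 7.58 and 7.67 in HSRA-C replicates 1 to 4. HSRA-S replicate 4 was highest and HSRA-C replicates 3 and 4 lowest (log2 difference 0.36, SE 0.16). Without HSRA-C replicates 3 and 4 the number of these receptors at an unadjusted p under 0.05 was 0, against 4.85% of all genes. With the covariate it was 1, against 7.86% of all genes.

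Of the lipid genes that respond to PPAR-alpha, 19 of 21 were higher in HSRA-S, with a median of 0.24, and 9 (42.9%) were higher at an unadjusted p under 0.05, against 7.34% of all genes. Pex11a, which divides peroxisomes, differed by 0.29 (SE 0.060), Crat, the carnitine acetyltransferase, by 0.27 (SE 0.082) and Slc25a20, the mitochondrial carnitine carrier, by 0.28 (SE 0.085). None passed after adjustment over all genes (0 with limma), and the median was 0.20 with 3 genes at an unadjusted p under 0.05 without HSRA-C replicates 3 and 4. It was 0.14 with 4 such genes with the tubule covariate. Of all genes 4.85% and 7.86% were at that threshold in these fits, in that order. This list was chosen with earlier results of these kidneys known, so its direction is no independent evidence.

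Enzymes upstream and downstream of the arachidonic acid products had 11 of 14 members higher, with a median of 0.065, where 7692 of all 13865 genes were higher. The 1 gene at an unadjusted p under 0.05 (7.14%) was lower, against 4.66% of all genes. This was Pla2g4a, the phospholipase that frees arachidonic acid from membranes, with log2 intensities of 6.35, 6.35, 6.47 and 6.15 in HSRA-S replicates 1 to 4, against 6.53, 6.51, 7.11 and 7.05 in HSRA-C replicates 1 to 4. HSRA-C replicates 3 and 4 were the highest arrays, and all HSRA-S arrays lay below all HSRA-C arrays (log2 difference -0.47, SE 0.15, limma adjusted p = 0.334). Of all genes 2.16% had groups apart in this direction. The difference of Pla2g4a was -0.19 without HSRA-C replicates 3 and 4 (unadjusted p = 0.0894) and -0.22 with the covariate (unadjusted p = 0.0310). Ephx1, the microsomal epoxide hydrolase, differed by 0.22 (SE 0.10) and Tbxas1, the thromboxane synthase, by 0.20 (SE 0.096).

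Other drug-metabolising enzymes had 21 of 27 members higher, with a median of 0.068, where 7692 of all 13865 genes were higher. The 1 member at an unadjusted p under 0.05 (3.70%) was higher, against 7.34% of all genes. This was Xdh. Xdh, the xanthine dehydrogenase, had log2 intensities of 7.54, 7.41, 7.19 and 7.62 in HSRA-S replicates 1 to 4, against 7.38, 7.12, 6.59 and 6.31 in HSRA-C replicates 1 to 4. HSRA-C replicates 3 and 4 lay lowest (log2 difference 0.59, SE 0.21). Gsta1, a glutathione transferase, differed by 0.33 (SE 0.15) and Akr7a3, an aldehyde reductase, by 0.22 (SE 0.12). Without HSRA-C replicates 3 and 4 the median was -0.015. At an unadjusted p under 0.05, 0 members were then higher and 3 lower, against 4.85% of all genes in either direction.

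**Figure D4:**
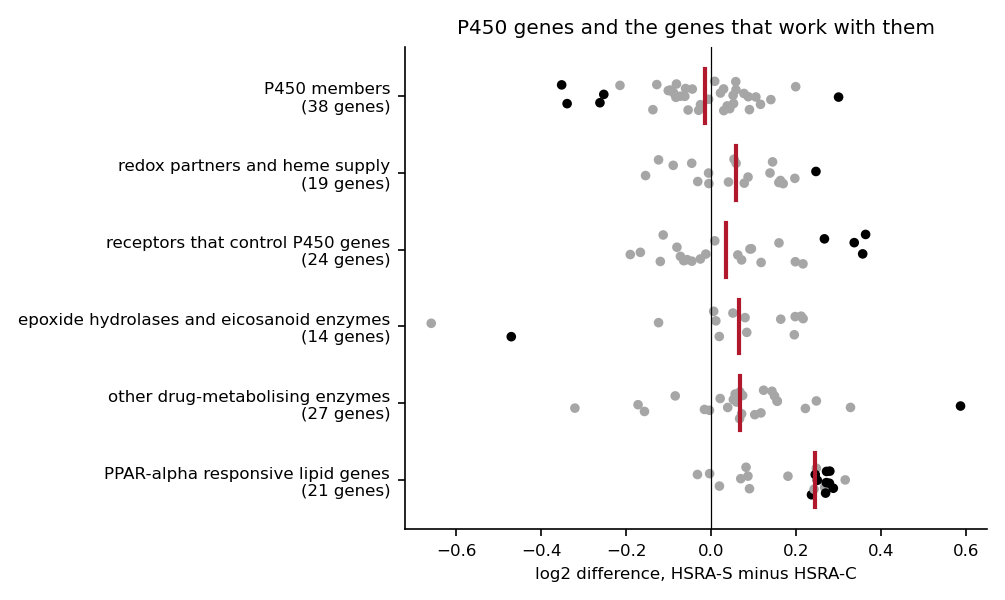
Log2 difference (HSRA-S minus HSRA-C, horizontal axis) of each gene in 6 lists (rows); black points have an unadjusted p under 0.05, grey the rest, and the red bar is the list's median. The P450 genes centre near 0 with a median of -0.016, and the PPAR-alpha responsive genes lie mostly to the right with a median of 0.24.

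Markers of liver and fat, which could reach a kidney sample from outside, were examined in the same way. Of 14 liver genes 7 reached the level, and their summed intensity was 260 to 283 in HSRA-S and 203 to 237 in HSRA-C. Tf, transferrin, at a log2 mean of 7.00 in HSRA-S and 6.64 in HSRA-C, made up a large part of that sum. Of the 7, 5 were higher and 2 lower in HSRA-S. Tf and Fgb, a fibrinogen chain, were higher at an unadjusted p under 0.05 (2 of 7), against 7.34% of all genes. With the tubule covariate 0 liver genes were at that threshold (7.86% of all genes). Without HSRA-C replicates 3 and 4 there were 2 (4.85% of all genes). Fat markers summed to 314 to 351 in HSRA-S and 308 to 351 in HSRA-C, with 8 of 10 higher and 2 lower. The 1 at an unadjusted p under 0.05 was Ucp1 of brown fat, which was higher, against 7.34% of all genes on that side. Cidec, a lower one, differed by -0.29 (SE 0.20). The part of either tissue in the P450 values was not tested.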

How the data were processed

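The authors deposited 1 linear intensity per probe set and array, summarised with RMA per the submitters' processing notes; its version is not given in the sources used here. These intensities ran from 2.12 to 9259, so log2 was taken first. RMA shrinks differences between dim values, and precision is limited by the number of arrays. Of 29214 probe sets, 18644 had 1 symbol, 962 several and 9608 none in the platform annotation. All 38 members matched RefSeq of GRCr8 by gene ID with the same symbol.

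The groups were compared with limma 3.58.1 in R 4.3.3 (lmFit, eBayes without trend, group only) over 13865 genes with a log2 mean of at least 3.6, with Benjamini-Hochberg adjustment at 0.05. Each difference is HSRA-S less HSRA-C, and values in brackets are standard errors on the log2 scale. The fit was tested on simulated data. Members, roles and lists were chosen with earlier results of these data known. Array values are given for the 5 members of smallest p in each direction, those with a difference of at least 0.5 (there were 0) and the brightest of each role; of other lists up to 3 genes of smallest p are named. Cyp4a8, Cyp2j3, Cyp1a1, Ahr, Ppara and named marker genes fall outside this rule and were picked once their values were known. Alternatives were 3 filters, the mean over probe sets, 2 variance models, array weights, 3 scalings, the replicate block and each array left out. Promoter sequences come from RefSeq.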

Additional observations from a re-analysis of the deposited data

Results flagged for a closer look

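In 3 of the 76 sets of 4 arrays examined (38 genes in 2 groups, 3.95%), the highest or lowest array lay far from the other 3 by Dixon's ratio, where chance gives about 1 set in 20. Cyp2c23, the renal epoxygenase, was at 11.8 in HSRA-S replicate 4, against 11.46 to 11.49 in the other HSRA-S arrays. Cyp11b1 was at 5.41 in HSRA-C replicate 3, against 5.21 to 5.22 in the other HSRA-C arrays. Cyp27a1, the sterol hydroxylase, was at 5.02 in HSRA-C replicate 3, against 5.18 to 5.19 in the other HSRA-C arrays. HSRA-S replicate 4 also had the highest tubule marker difference at 2.88, and HSRA-C replicate 3 had one of the lowest at 1.66; the part of either in these values was not tested.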

How the results depend on the processing

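Over all genes, 0 passed the adjusted threshold. In each of the fits without the dimmest 50% of genes, with an intensity trend, with array weights and with 16 added before log2, 1 passed. It was a P450 gene in none of these fits. No named member passed in any of the 21 alternatives (0 at an adjusted p under 0.05, the smallest being 0.185). The 5 members at an unadjusted p under 0.05 became 2 without the dimmest 50% of genes (which left 15 members), 3 with the mean over probe sets (36 members), 3 with a plain test per gene and 2 with the tubule covariate. Over all genes 1261 of 8623, 1658 of 13834, 1440 of 13865 and 1090 of 13865 were at that threshold, in that order. In the main fit it was 1663 of 13865. Leaving out each array in turn gave 3 to 5, with 3 without HSRA-S replicate 1, HSRA-S replicate 2 or HSRA-C replicate 3, and 0 genes past the adjusted threshold each time. Over all 13865 genes these fits gave 1011 to 1944 at an unadjusted p under 0.05. The 3 fits named gave 1315, 1319 and 1011, in that order. With the replicate block there were 6 members (1592 of all 13865 genes), Cyp39a1 being added, and the median stayed at -0.016. Same-numbered samples did not deviate together (correlations of their deviations from the group means of -0.067, 0.069, 0.13 and -0.11 for numbers 1 to 4), so the numbers were not treated as pairs. The median difference of the members ranged from -0.057 with the covariate to 0.038 without the dimmest 50%.

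Cyp11b1, Cyp17a1, Cyp1b1, Cyp20a1, Cyp2a1, Cyp2r1, Cyp2s1, Cyp2u1, Cyp39a1 and Cyp7b1 kept their direction in all alternatives that gave a value. Cyp4f1 was never below 0, but without HSRA-C replicates 3 and 4 its difference was 3.1e-05, which has no direction. The sign turned for Cyp1a1 with array weights (0.066), for Cyp4a8 with array weights (0.23), for Cyp2e1 with the mean over probe sets (0.023) and for Cyp2c23 with the covariate (-0.0091). Cyp26c1 turned with array weights (0.068), with arrays centred on the median (0.00067), without HSRA-C replicates 3 and 4 (0.066) and with the covariate (0.044). Cyp2j3 turned without HSRA-C replicates 3 and 4 (-0.49) and with the covariate (-0.42). With single arrays left out the signs of Cyp1a1 (-0.28 to 0.052), Cyp26c1 (-0.17 to 0.12), Cyp2e1 (-0.28 to 0.025), Cyp2j3 (-0.14 to 0.29) and Cyp4a8 (-0.54 to 0.19) were not fixed. The cause was not tested.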
